A study of Mus musculus with 4 samples.

Results

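The transforming growth factor-β (TGF-β), activin and bone morphogenetic protein (BMP) genes examined here were 10 of the 32285 genes counted in each library: the ligand genes *Tgfb1*, *Tgfb2*, *Tgfb3*, *Inhba*, *Bmp4* and *Bmp6* and the receptor genes *Tgfbr1*, *Tgfbr2*, *Tgfbr3* and *Bmpr1b*. They were taken by gene symbol, whatever their level. Cells of the left lung lobe were profiled by droplet-based single-cell RNA sequencing (scRNA-Seq) in 4 libraries from wild-type male C57BL/6 mice. The labels give a food-restricted diet for the mice of the series, which the study's methods describe for the aged mice. The groups were young nonventilated (YNV) and young ventilated (YV) mice, and aged nonventilated (ANV) and aged ventilated (AV) mice. Young mice were 2 to 3 months old and aged mice 22 months old, and each library held the pooled cells of 3 mice. The ventilated mice were on a ventilator for 3 hours with a high tidal volume, and they also had anesthesia, analgesia, vascular lines and pure oxygen. The nonventilated mice were naive, so these exposures cannot be told apart. Sex was the same throughout, and no group has a replicate library.

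Ligands of this superfamily are secreted as dimers and signal through pairs of type I and type II serine/threonine kinase receptors, which phosphorylate SMAD transcription factors. TGF-β is released in a latent form that integrins and other proteins on the cell surface or in the matrix activate, and in the lung it is known for its part in epithelial permeability, fibroblast activation and repair. Activin A shares SMAD partners with TGF-β, whereas BMPs use a separate set and are known for roles in endothelial quiescence and in epithelial and vascular development.

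In total, 10160 of 15428 barcodes passed the cell filters, between 2171 and 2976 cells per library, with 22814008 to 28010151 unique molecular identifiers (UMIs, 1 per captured transcript) and a median of 7871 to 9104 UMIs per cell. Clusters were named from marker genes and are called "-like" for that reason, and 9253 cells fell into 17 named classes. In the largest endothelial cluster, more venous than general capillary markers were among the leading genes (2 against 1), so it is called the *Ptprb* endothelial cluster after one of those genes. *Ptprb* is on the general capillary list. All 8 markers of that list were detected in the cluster, against 2 venous ones, with mean log2 folds of 4.81 and 2.74 for the 2 lists. The class labelled alveolar type II-like also held airway cells, and the pericyte-like class held smooth muscle cells. There were 8 barcodes present in more than 1 library. UMIs were summed per class and library and expressed as counts per 1000000 UMIs of that sum (CPM). A pair of gene and class was compared when both sums together held at least 20 UMIs, and it was called higher or lower when the ratio was at least 2-fold and its 95% counting interval left out 1. With 1 pooled library per group there was no test, and all intervals cover counting error only, not the spread between mice.

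The start sites of 3 ligand genes are shown because their levels after ventilation are the center of the results. Each window runs from 250 bases before to 50 bases after an annotated gene start, 5′ to 3′ on the gene's strand, in RefSeq for GRCm38.p6, the build of the counts. The *Inhba* gene lies on chromosome 13 from 16011851 to 16031621, *Tgfb1* on chromosome 7 from 25687002 to 25705077 and *Tgfb2* on chromosome 1 from 186622792 to 186705989, and each window covers the start of the gene. The *Inhba* window is chr13:16011601-16011900 (plus strand), the *Tgfb1* window chr7:25686752-25687051 (plus strand) and the *Tgfb2* window chr1:186705940-186706239 (minus strand). Capitals mark matches on the printed strand to the SMAD box CAGAC and to the TATA box TATAAA.

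Inhba: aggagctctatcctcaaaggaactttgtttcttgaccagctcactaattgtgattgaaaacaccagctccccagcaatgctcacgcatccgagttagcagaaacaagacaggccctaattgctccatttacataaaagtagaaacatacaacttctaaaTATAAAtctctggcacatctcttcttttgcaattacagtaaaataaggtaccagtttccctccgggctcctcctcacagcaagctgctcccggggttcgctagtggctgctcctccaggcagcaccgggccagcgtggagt
Tgfb1: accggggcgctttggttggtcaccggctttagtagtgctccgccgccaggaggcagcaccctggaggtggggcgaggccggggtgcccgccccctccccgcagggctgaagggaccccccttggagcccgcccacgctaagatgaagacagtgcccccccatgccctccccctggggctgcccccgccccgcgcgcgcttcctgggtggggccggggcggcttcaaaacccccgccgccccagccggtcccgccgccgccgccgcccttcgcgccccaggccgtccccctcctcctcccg
Tgfb2: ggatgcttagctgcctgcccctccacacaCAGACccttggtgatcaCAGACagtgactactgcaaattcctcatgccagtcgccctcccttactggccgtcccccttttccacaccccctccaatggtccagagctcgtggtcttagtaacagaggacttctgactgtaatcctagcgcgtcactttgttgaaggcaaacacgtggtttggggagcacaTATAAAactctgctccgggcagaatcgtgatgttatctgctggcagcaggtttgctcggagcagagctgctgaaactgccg

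Windows were found for 8 of the 10 genes, the exceptions being *Tgfb3* and *Tgfbr3*. Both strands were searched for the boxes CAGAC and TATAAA, the AP-1 site TGANTCA and the TEAD site GGAATG, which 49.6%, 13.6%, 7.81% and 14.7% of 32851 windows of this length held. The *Inhba* window held a TATAAA match 91 bases before the start and no other match. The *Tgfb2* window held CAGAC 221 and 204 bases before the start and TATAAA 31 bases before it. The *Tgfb1* window held none of these letters, and its GC content was 77.0%, against 47.7% for *Inhba*, 54.3% for *Tgfb2* and a median of 52.7% over all windows. A match is a run of letters, not a site shown to be bound.

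The 10 genes were spread over different compartments. *Tgfb1* was highest in classical monocyte-like cells, with a mean of 478 CPM over the 4 libraries, followed by nonclassical monocyte-like cells at 370 CPM, and their ranges overlapped. *Tgfb2* was highest in mesothelial-like (332 CPM) and pericyte-like cells (292 CPM), and *Tgfb3* in lymphatic endothelial-like (102 CPM) and pericyte-like cells (94.7 CPM), again with overlapping ranges. A finer clustering, described below, separated smooth muscle-like from pericyte-like cells. There *Tgfb3* was at a mean of 146 CPM in smooth muscle-like and 24.3 CPM in pericyte-like cells, and *Tgfb2* at 362 and 189 CPM. The ligand *Bmp6* was the most concentrated: the *Ptprb* endothelial cluster held 92.4% of its UMIs in named classes, at a mean of 765 CPM, and its range lay apart from that of the aerocyte-like capillary cells at 165 CPM. Fibroblast-like cells held 73.3% of *Bmp4* UMIs, 55.7% of *Tgfbr3* UMIs and 48.5% of *Tgfbr2* UMIs. *Tgfbr1*, the type I receptor for TGF-β, was present in every class, with its highest mean in alveolar macrophage-like cells (392 CPM). *Bmpr1b*, a type I receptor for BMPs, had 470 UMIs in all kept cells, and 48.5% of those in named classes were in the alveolar type II-like class. That class also held airway cells.

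**Figure D1:**
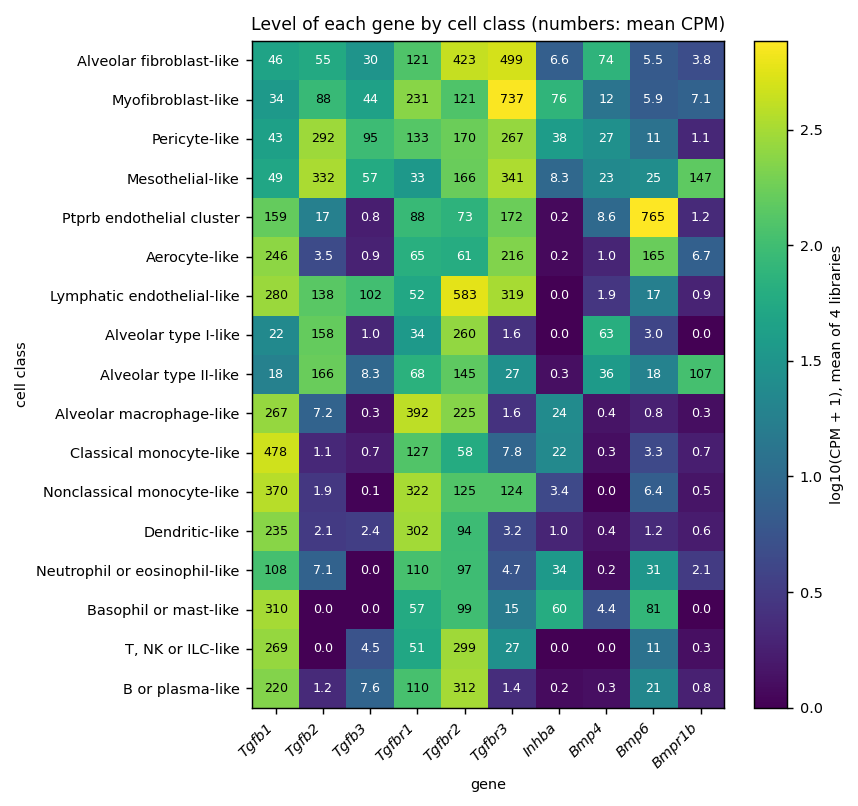
Mean CPM of the 4 libraries for each gene (columns) in each cell class (rows). Color gives log10(CPM + 1) and the printed numbers give the mean CPM. *Bmp6* stands out in the *Ptprb* endothelial cluster (765 CPM) and *Tgfb1* in the monocyte-like classes (478 and 370 CPM).

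Ventilation was compared with no ventilation at each age. In young mice, 95 of 170 pairs of gene and class had enough UMIs; 12 were higher and 20 lower in the ventilated library. Over all genes, 21.6% of such pairs in named classes were called in this comparison. In aged mice, 84 pairs had enough UMIs, with 8 higher and 13 lower, beside 14.5% called over all genes. Between the ages, 5 of 88 pairs were higher and 4 lower in aged than in young nonventilated mice (5.92% of pairs called over all genes), and 9 of 87 were higher and 12 lower in aged than in young ventilated mice (8.16% over all genes). All 10 genes had at least 1 pair with enough UMIs. The comparisons share libraries, so their counts are not independent of each other.

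**Figure D2:**
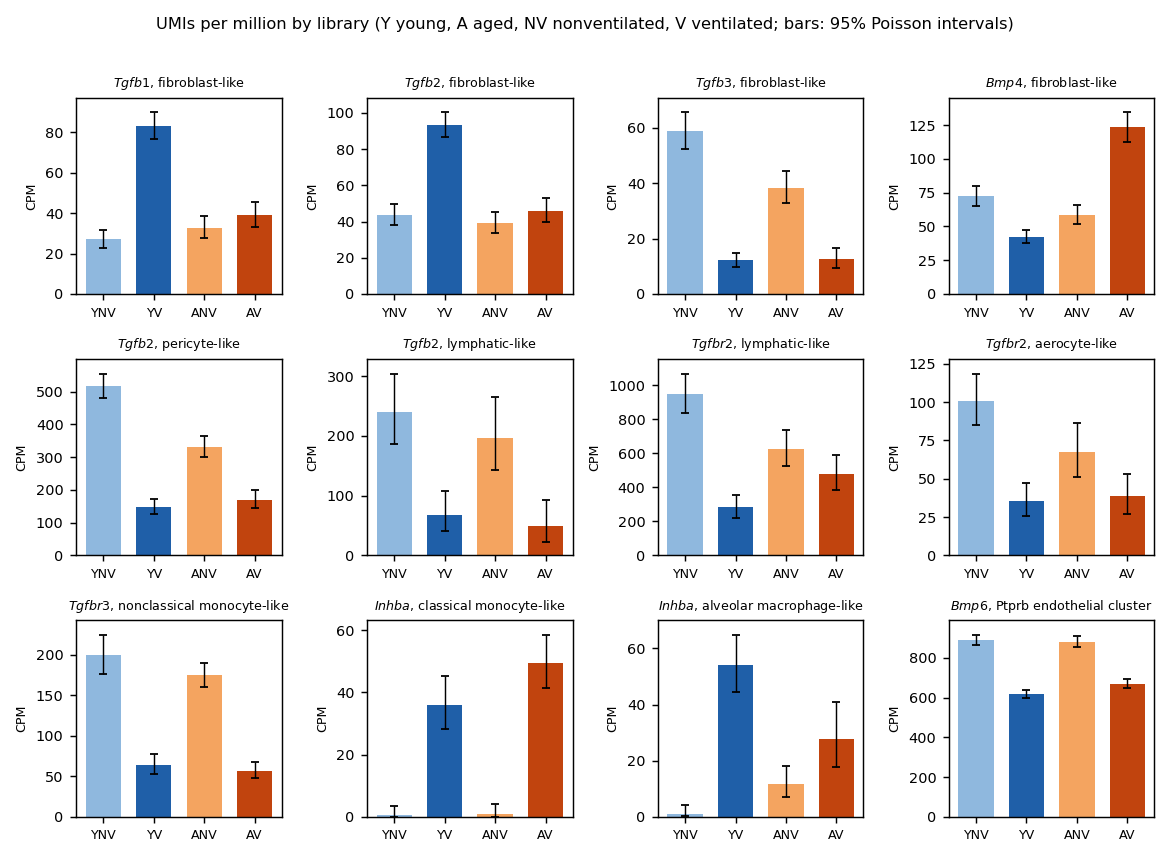
CPM of 12 pairs of gene and class in the YNV, YV, ANV and AV libraries. Bars give CPM from 0 and whiskers the 95% Poisson interval of the count. *Tgfb1* in fibroblast-like cells was 83.2 CPM in the young ventilated library and between 27.1 and 39.0 CPM in the other 3.

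The fibroblast-like class, with 257 to 497 cells per library, held enough UMIs of all 10 genes. In the young, 3 genes were higher and 2 lower after ventilation, beside 30.0% of 12588 genes called in that class, and in the aged 1 was higher and 2 were lower, beside 17.3% of 11929 genes. *Tgfb1*, the most widely expressed TGF-β ligand, was at 27.1 CPM in YNV, 83.2 CPM in YV, 32.8 CPM in ANV and 39.0 CPM in AV fibroblast-like cells. The young ventilated library stood above the other 3, 3.07-fold (2.56 to 3.70) over the young nonventilated library. In the aged the log2 ratio was 0.25, and the aged-minus-young difference in log2 ratio was -1.36 (-1.77 to -0.95). *Tgfb1* UMIs were found in 243 young ventilated cells of this class, against 97 young nonventilated cells, and the highest cell held 17 of 624 UMIs.

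*Tgfb2*, the TGF-β ligand of many mesenchymal and epithelial cells, was also highest in the young ventilated library of fibroblast-like cells. Its level was 43.8 CPM in the YNV, 93.2 CPM in the YV, 38.9 CPM in the ANV and 45.8 CPM in the AV library. That library was 2.13-fold (1.83 to 2.48) above the young nonventilated and 2.03-fold (1.73 to 2.40) above the aged ventilated library, and the other 3 lay close together. *Tgfb3*, known for its role in palate and lung development, went the other way. It was at 58.7 CPM in YNV, 12.1 CPM in YV, 38.3 CPM in ANV and 12.6 CPM in AV cells. Both ventilated libraries were low, 4.84-fold (3.82 to 6.18) in the young and 3.04-fold (2.22 to 4.22) in the aged. In myofibroblast-like cells of the young it went down from 28 to 3 UMIs. The aged lymphatic endothelial-like cells, by contrast, went up from 18 to 32 UMIs (2.12-fold, 1.15 to 4.01), a direction that was lost when cells were thinned to 1000 UMIs.

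*Bmp4*, a BMP ligand of the lung mesenchyme, was at 72.2 CPM in YNV, 42.1 CPM in YV, 58.7 CPM in ANV and 123 CPM in AV fibroblast-like cells. The young ventilated library was the lowest and the aged ventilated library the highest of the 4. The young log2 ratio of -0.78 did not reach 2-fold, while the aged ventilated level was 2.10-fold (1.81 to 2.44) above the aged nonventilated level and 2.93-fold (2.54 to 3.38) above the young ventilated level. The highest cell held 15 of the 509 aged ventilated UMIs. *Tgfbr3* (betaglycan), a coreceptor that presents TGF-β2 to its receptors, was likewise below its nonventilated level in the young and above it in the aged, with 610, 412, 404 and 572 CPM in the YNV, YV, ANV and AV libraries, but none of its ratios reached 2-fold.

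Of the signaling receptors, *Bmpr1b* alone had a call in these cells after ventilation, on few UMIs. *Tgfbr2*, the type II receptor that binds TGF-β, was at 301 and 493 CPM in the young and at 328 and 571 CPM in the aged, nonventilated first, with log2 ratios of 0.71 and 0.80 under the 2-fold limit. *Tgfbr1* had log2 ratios of 0.64 in the young and 0.36 in the aged. *Bmpr1b* had 23, 10, 22 and 19 UMIs in the YNV, YV, ANV and AV libraries, and the young ventilated library was 3.23-fold (1.48 to 7.60) lower than the young nonventilated one. *Bmp6* in fibroblast-like cells rested on few cells, since 1 cell held 26 of 48 young nonventilated UMIs and another 19 of 24 aged nonventilated UMIs.

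At a finer clustering resolution, the mesenchymal cells split into alveolar fibroblast-like, adventitial fibroblast-like, smooth muscle-like and pericyte-like classes. *Tgfb3* was lower after ventilation in both kinds of fibroblast-like cell, most in the adventitial ones, where it was at 166 CPM in YNV, 12.1 CPM in YV, 96.8 CPM in ANV and 26.9 CPM in AV cells. In smooth muscle-like cells neither age was called, with *Tgfb3* at 150, 90.1, 173 and 173 CPM in the same order. Pericyte-like cells went the other way in the young, where *Tgfb3* was called higher after ventilation. Its log2 ratio there was 2.32 in the young and -0.14 in the aged, and the smallest sum was 2 UMIs. *Tgfb1* was higher in the young ventilated library in both fibroblast-like classes, at 80.6 CPM in alveolar and 104 CPM in adventitial cells. *Tgfb2* differed between the 2, at 98.2 CPM in alveolar and 53.1 CPM in adventitial cells of the young ventilated library, with log2 ratios of 1.47 and -0.85 against the young nonventilated library.

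**Figure D3:**
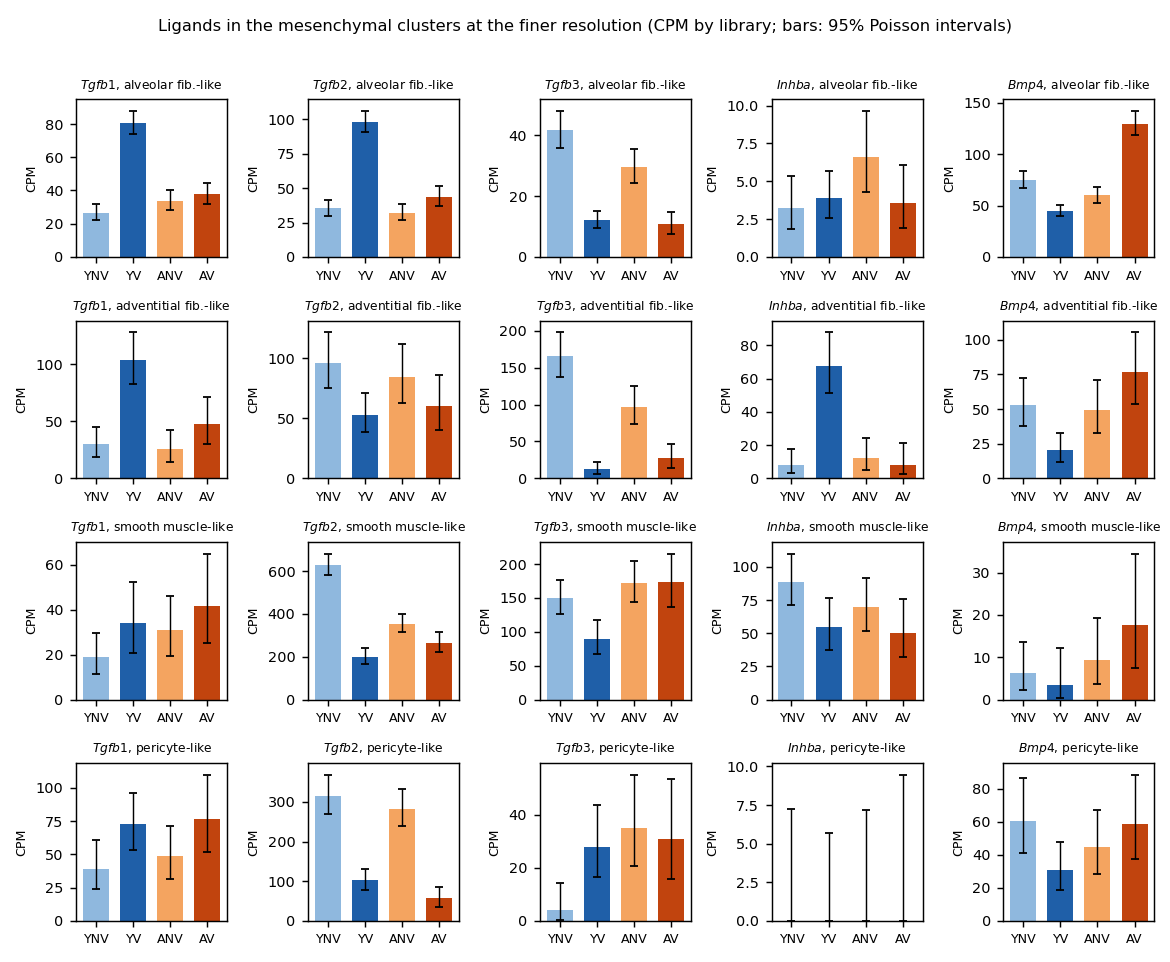
CPM of 5 ligand genes (columns) in 4 mesenchymal classes at the finer resolution (rows), by library, with bars from 0 and whiskers for the 95% Poisson interval. *Tgfb3* was lower in both ventilated libraries in the fibroblast-like classes, and *Tgfb2* in the pericyte-like class. *Inhba* had 0 UMIs in pericyte-like cells in every library.

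*Tgfb2* in the pericyte-like class moved opposite to *Tgfb2* in fibroblast-like cells. It was at 517 CPM in YNV, 148 CPM in YV, 331 CPM in ANV and 171 CPM in AV cells, so that both nonventilated libraries were above both ventilated ones. The young ratio was past the limit, 3.49-fold (2.97 to 4.13) lower after ventilation, and the aged log2 ratio of -0.95 fell just short of it. In the young nonventilated library, 157 of 766 UMIs came from 1 cell. At the finer resolution the level fell in pericyte-like cells at both ages, from 316 to 102 CPM in the young and from 283 to 56.4 CPM in the aged, and in smooth muscle-like cells from 629 to 199 CPM in the young, whereas the aged smooth muscle-like cells were at 355 and 265 CPM. Lymphatic endothelial-like cells, a class of 20 to 31 cells per library, had *Tgfb2* at 240, 67.8, 197 and 49.1 CPM in the YNV, YV, ANV and AV libraries. Both ventilated libraries were low there too, 3.54-fold (2.08 to 6.33) in the young and 4.01-fold (1.93 to 9.36) in the aged, on 9 to 68 UMIs.

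Mesothelial-like cells (166 to 507 CPM) and alveolar type I-like cells (111 to 193 CPM) also held *Tgfb2* in every library. In the alveolar type II-like and neutrophil-like classes, by contrast, high *Tgfb2* values came from single cells. In the alveolar type II-like class, *Tgfb2* had 4, 19 and 13 UMIs in the YNV, YV and ANV libraries and 274 UMIs in the AV library. A single cell held 259 of those 274, and the other 77 cells held 15 (34.6 CPM). This cell had 16456 UMIs over 3721 genes and 9.74% mitochondrial UMIs. It held 405 UMIs of *Scgb1a1*, the main secretory protein of club cells, 35 UMIs of *Bmpr1b* and 0 of *Sftpc*, the type II cell surfactant gene. In young ventilated neutrophil-like cells, 28 of 29 *Tgfb2* UMIs were likewise in 1 cell.

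*Inhba* encodes the subunit of activin A. In classical monocyte-like cells it had 1 UMI in the YNV, 73 in the YV, 1 in the ANV and 136 in the AV library. Both ventilated libraries stood apart, at 35.9 CPM in the young and 49.4 CPM in the aged, 59.5-fold (10.3 to 2382) and 64.9-fold (11.5 to 2583) over the nonventilated levels. The wide intervals follow from the single UMI in each nonventilated library. A UMI of *Inhba* was found in 1 of 108, 20 of 170, 1 of 121 and 34 of 161 cells, in the order given above. After each cell was thinned to 5000 UMIs, leaving out 4 to 50 shallower cells per library, the shares were 0%, 10.0%, 0% and 10.7%, where 0 of 104 and 0 of 96 thinned cells would allow up to 2.88% and 3.12%. Ventilated and nonventilated cells of this class lay apart in the finer clustering, where 1 of its clusters held 0, 109, 0 and 142 cells of the YNV, YV, ANV and AV libraries and the other 104, 1, 90 and 2. In 4 other clusterings the class held no nonventilated cell, so that no ratio could be given. In B or plasma-like cells, taken as the background class, it was found in 0, 0, 0 and 1 cells, at a median depth of 7467 to 11092 UMIs against 11550 to 17877 UMIs in classical monocyte-like cells.

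Because *Inhba* is also high in smooth muscle cells, markers of that type were measured in the monocyte-like cells that carried it. Their summed level was 15.7 CPM in the young ventilated and 14.3 CPM in the aged ventilated cells with *Inhba*, and 14.6 and 10.4 CPM in the cells without it. The neutrophil marker list was at 924 CPM with and 1482 CPM without *Inhba* in the young ventilated cells, and at 3791 and 961 CPM in the aged ventilated cells. Neutrophil or eosinophil-like cells themselves had 20, 55, 3 and 46 *Inhba* UMIs in the YNV, YV, ANV and AV libraries, with neither age past the limit. The part of the neutrophil markers in the monocyte values was not tested.

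Alveolar macrophage-like cells had 2, 116, 19 and 25 *Inhba* UMIs in the YNV, YV, ANV and AV libraries. The young ventilated library was the highest, 46.5-fold (12.6 to 388) over the young nonventilated one, with UMIs in 23 of 108 cells against 2 of 99. The aged ratio was 2.40 (1.27 to 4.61), but 15 of the 25 aged ventilated UMIs came from 1 of 4 positive cells. The aged-minus-young difference in log2 ratio was -3.72 (-5.58 to -1.87). Aged nonventilated macrophage-like cells also held more *Inhba* than young nonventilated ones, 9.93-fold (2.40 to 87.9), with 9 of 19 UMIs in 1 cell.

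In the mesenchyme at the finer resolution, *Inhba* had its highest means in myofibroblast-like (75.8 CPM, range 15.0 to 206 CPM) and smooth muscle-like cells (65.8 CPM). Smooth muscle-like cells were at 88.9, 54.4, 69.6 and 50.3 CPM in the YNV, YV, ANV and AV libraries. No ratio there reached 2-fold. Fibroblast-like cells had 21, 82, 33 and 17 UMIs, and the young ventilated library was 2.78-fold (1.71 to 4.73) over the young nonventilated one. Of those 82 UMIs, 56 were in adventitial fibroblast-like cells at the finer resolution, in 9 cells, and 25 of them were in 1 cell. Myofibroblast-like cells had 67 young ventilated UMIs, 30 of them in 1 cell, against 18 in the young nonventilated library.

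**Figure D4:**
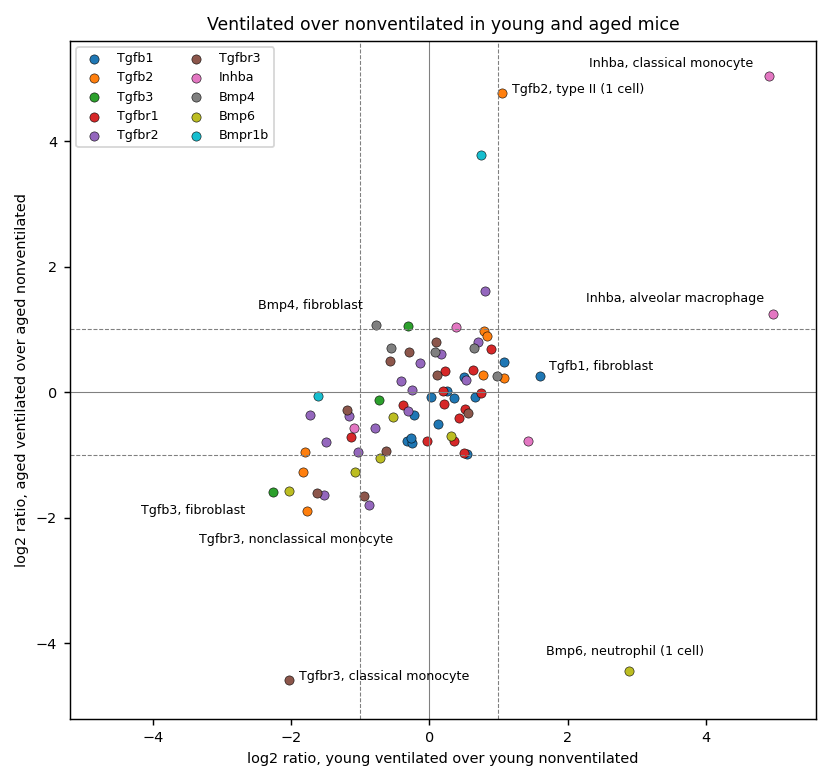
Log2 ratio of ventilated over nonventilated in young (x axis) and aged mice (y axis) for each pair of gene and class with at least 20 UMIs in both comparisons. Dashed lines mark 2-fold and colors give the gene. *Inhba* in classical monocyte-like cells lies at 4.91 and 5.03, *Bmp4* in fibroblast-like cells at -0.78 and 1.07, and the pairs marked "1 cell" owe an extreme value to a single cell.

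Receptor genes fell after ventilation in several immune and endothelial classes. *Tgfbr3* in nonclassical monocyte-like cells was at 199 CPM in YNV, 64.2 CPM in YV, 175 CPM in ANV and 57.0 CPM in AV cells. Both ventilated libraries were low, 3.11-fold (2.49 to 3.90) in the young and 3.06-fold (2.53 to 3.74) in the aged. The share of cells with a *Tgfbr3* UMI was 62.8%, 22.4%, 57.9% and 23.4%, and 49.6%, 19.8%, 47.0% and 17.0% after thinning to 5000 UMIs. In B or plasma-like cells, with a median of 7467 to 11092 UMIs per cell against 7532 to 10322 here, the share was at most 2.11%. The young call was lost under 4 of 12 alternatives, all of them new clusterings, where the log2 ratio came down to -0.66. In those 4 the class held 239 to 253 young and 443 to 485 aged nonventilated cells, against 145 and 363 here, and no nonventilated cell was left in the classical monocyte-like class. The aged call was kept under all 12.

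Of the *Tgfbr2* calls in the young, the one with the largest ratio was in lymphatic endothelial-like cells, where it was at 947 CPM in nonventilated and 282 CPM in ventilated mice, against 622 and 480 CPM in the aged. The young ratio was 3.35-fold (2.59 to 4.39) lower, and the aged log2 ratio was -0.37. Neutrophil or eosinophil-like cells had 139, 48.0, 152 and 49.6 CPM in the YNV, YV, ANV and AV libraries. Both ventilated libraries of these cells were low, 2.89-fold (2.00 to 4.20) in the young and 3.08-fold (1.98 to 4.71) in the aged. In this class the median log2 ratio over all genes was itself -0.36 in the young and -0.35 in the aged.

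The other *Tgfbr2* calls were at 1 age. In aerocyte-like capillary cells it was at 101, 35.4, 67.3 and 38.5 CPM in the YNV, YV, ANV and AV libraries, and only the young ratio, 2.85-fold (2.03 to 4.07) lower, was past the limit. Nonclassical monocyte-like cells were at 191, 93.7, 141 and 72.7 CPM, with log2 ratios of -1.03 and -0.96 on either side of the limit. Classical monocyte-like cells were called in the aged, 3.50-fold (2.58 to 4.78) lower, with a log2 ratio of -0.87 in the young. In the dendritic-like class the young level was 134 CPM without and 59.8 CPM with ventilation. At the finer resolution that class split, and *Tgfbr2* was at 180 and 77.2 CPM in young interstitial macrophage-like cells and at 49.4 and 41.2 CPM in young dendritic-like cells.

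*Tgfbr2* went up in the alveolar type II-like class of the aged, from 67.1 to 209 CPM (3.11-fold, 2.14 to 4.59), and was at 110 and 195 CPM in the young. Alveolar type I-like cells were at 246, 357, 205 and 234 CPM, without a call. *Tgfbr1* had fewer calls. In alveolar macrophage-like cells it was at 411, 477, 361 and 318 CPM in the YNV, YV, ANV and AV libraries. Its 1 call after ventilation was in T, NK or innate lymphoid-like cells of the young, from 27 to 11 UMIs, and between the ages it was lower in AV than in YV pericyte-like cells (2.28-fold, 1.73 to 3.04).

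Where *Tgfb1* was most abundant, its level stayed within 2-fold after ventilation. In classical monocyte-like cells it was at 510, 410, 625 and 366 CPM in the YNV, YV, ANV and AV libraries, and in nonclassical monocyte-like cells at 326, 418, 380 and 357 CPM. Pericyte-like cells went from 25.7 to 54.7 CPM in the young (2.13-fold, 1.41 to 3.26) and were at 37.9 and 52.6 CPM in the aged. Myofibroblast-like cells rose from 4 to 32 UMIs in the young, with 14 of the 32 in 1 cell.

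*Bmp6*, a BMP ligand that endothelial cells secrete and that is known for its part in iron regulation, was at 890 CPM in YNV, 619 CPM in YV, 882 CPM in ANV and 670 CPM in AV cells of the *Ptprb* endothelial cluster. Both ventilated libraries were below both nonventilated ones, but the log2 ratios of -0.52 and -0.40 were within 2-fold. None of the 7 genes with enough UMIs in this cluster was called in any of the 4 comparisons, whereas 27.5% of all its genes were called in the young and 17.9% in the aged after ventilation, and the median log2 ratio over all genes was -0.29 and -0.15. *Tgfb2* came close, with log2 ratios of 0.79 in the young and 0.98 in the aged. At the finer resolution it was called higher in general capillary-like cells at both ages, from 20 to 76 UMIs in the young (3.26-fold, 1.97 to 5.64) and from 26 to 42 UMIs in the aged (2.11-fold, 1.26 to 3.58). *Bmp6* was at 980, 644, 938 and 762 CPM in those cells and at 424, 429, 561 and 352 CPM in venous-like cells. General capillary-like cells there came from a pair of clusters that ventilation separated. Aerocyte-like cells were at 177, 220, 164 and 101 CPM.

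**Figure D5:**
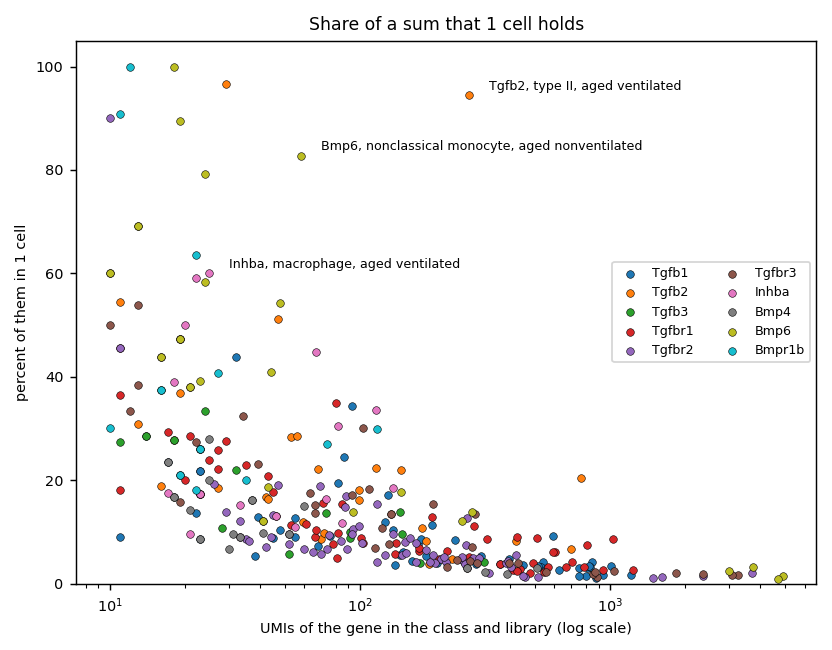
Percent of a gene's UMIs in a class and library that came from the cell with the most of them (y axis), against the number of UMIs (x axis, log scale), with at least 10 UMIs per point. In the aged ventilated alveolar type II-like class, 94.5% of *Tgfb2* UMIs came from 1 cell, while most sums above 1000 UMIs had under 5% in 1 cell.

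In other classes *Bmp6* calls rested on few cells. In aged nonventilated nonclassical monocyte-like cells, 48 of 58 UMIs came from 1 cell, and all 18 UMIs of aged nonventilated neutrophil or eosinophil-like cells came from 1 cell, which also held 53 UMIs of the general capillary marker list. In young nonventilated B or plasma-like cells 17 of 19 UMIs were in 1 cell, with 141 UMIs of that list. Aged nonventilated B or plasma-like cells differed, with 43 UMIs over 14 cells and at most 8 in a cell. The part of endothelial RNA in these values was not tested.

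*Bmpr1b* in the alveolar type II-like class had 22, 74, 11 and 117 UMIs in 4, 12, 2 and 6 cells of the YNV, YV, ANV and AV libraries. The aged ventilated library was the highest, 14.8-fold (7.97 to 30.5) over the aged nonventilated one. The cells with *Bmpr1b* held 328, 3522, 5115 and 1207 UMIs of the secretory airway marker list, and 3116, 4817, 19 and 73 UMIs of the type II list. In both aged libraries the secretory sum was far above the type II sum. Of the 117 aged ventilated *Bmpr1b* UMIs, 35 were in the cell described above with 405 *Scgb1a1* and 0 *Sftpc* UMIs. The sums pool the cells, so in the young they do not show which cells held the *Bmpr1b* UMIs. At the finer resolution, the alveolar type II-like class had a mean of 2.07 CPM, against 107 CPM here. It held 1.24% of *Bmpr1b* UMIs in the named classes of that resolution. Aerocyte-like cells had 35 *Bmpr1b* UMIs in 13 cells of the young nonventilated library and 2, 1 and 0 UMIs in the other 3, so that nearly all of the UMIs were in the young nonventilated library.

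The remaining calls after ventilation rested on small sums or on classes of few cells. *Tgfbr3* in classical monocyte-like cells went from 19 to 5 UMIs in the young and from 22 to 1 in the aged, log2 ratios of -2.03 and -4.59, lower at both ages. *Inhba* in aged nonclassical monocyte-like cells went from 1 to 22 UMIs, 13 of them in 1 cell. In the pericyte-like class *Inhba* was lower in the young (85 to 33 UMIs, -1.09), and its aged sums were 52 and 23 UMIs. At the finer resolution *Inhba* had 0 CPM in pericyte-like cells, and its young log2 ratio of -0.68 in smooth muscle-like cells was not called. Young smooth muscle-like cells went from 88 to 55 cells with ventilation there, and pericyte-like cells from 75 to 93. The part of this change in the call was not tested. *Tgfb2* in young alveolar macrophage-like cells went from 16 to 5 UMIs (-1.82). In the alveolar type II-like class, *Tgfb1* was higher in the young (3 to 22 UMIs), and in the aged *Tgfbr3* (34 to 7 UMIs) and *Bmp6* (23 to 4 UMIs) were lower. *Tgfbr3* was lower in young myofibroblast-like cells (289 to 122 UMIs, -1.18). In young mesothelial-like cells, *Tgfb3* (16 to 11 UMIs, -1.41) and *Bmpr1b* (27 to 16 UMIs, -1.63) were lower and *Bmp6* was higher (1 to 21 UMIs). *Bmp6* was also higher in young neutrophil or eosinophil-like cells (2 to 44 UMIs, 18 of them in 1 cell) and lower in aged pericyte-like cells (24 to 6 UMIs, 14 of the 24 in 1 cell).

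Between the ages without ventilation, the calls not yet given were *Tgfb1* in lymphatic endothelial-like cells (log2 ratio of 1.12, higher in the aged), *Tgfbr3* in the alveolar type II-like class (1.02), *Bmp6* in nonclassical monocyte-like (3.09) and neutrophil or eosinophil-like cells (3.88), *Tgfbr1* in alveolar type I-like cells (-1.35), *Tgfb2* in mesothelial-like cells (-1.07) and *Bmpr1b* in the alveolar type II-like class (-1.58). With ventilation, the aged library was lower for *Inhba* in fibroblast-like (-1.34) and myofibroblast-like cells (-3.22), for *Tgfb1* in fibroblast-like (-1.09), myofibroblast-like (-1.76) and alveolar type I-like cells (-2.20), for *Tgfb2* in mesothelial-like (-1.40) and neutrophil or eosinophil-like cells (-3.60), and for *Bmp6* in fibroblast-like (-1.07), aerocyte-like (-1.12) and neutrophil or eosinophil-like cells (-3.45). It was higher for *Tgfbr3* in lymphatic endothelial-like (1.02) and myofibroblast-like cells (1.04), *Tgfb3* in lymphatic endothelial-like cells (1.33), *Inhba* in nonclassical monocyte-like cells (1.58), *Bmp4* in pericyte-like cells (1.04), and *Bmpr1b* in fibroblast-like (1.72) and alveolar type II-like cells (1.43). The *Bmpr1b* call in the alveolar type II-like class changed sign under other settings, given below. *Tgfb2* was higher there too (4.56), through the single cell described above. A single cell also held most UMIs of the higher library for *Bmp6* in nonclassical monocyte-like and neutrophil or eosinophil-like cells without ventilation. The same was so with ventilation for *Tgfb2* in neutrophil or eosinophil-like cells and *Inhba* in nonclassical monocyte-like cells.

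Lists of other genes of the pathway were read in the same way. They were chosen with earlier results of these data known, and the shares over all genes were not matched to them in UMIs. The shares of the lists are therefore descriptions only. Of 102 pairs of TGF-β target genes and classes in the young, 42 were higher and 22 lower after ventilation (62.7% called), and of 85 pairs in the aged 21 were higher and 20 lower (48.2%), against 21.6% and 14.5% over all genes. Their median log2 ratios were 0.29 and -0.20, where the medians over all genes of a class ran from -0.36 to 0.16 over all classes and comparisons. *Tnc* (tenascin C, a matrix glycoprotein) in fibroblast-like cells rose from 119 to 9257 UMIs in the young and from 167 to 499 UMIs in the aged, a log2 ratio of 5.78 and 1.71. *Eln* (elastin) fell in the *Ptprb* endothelial cluster, with log2 ratios of -4.05 and -2.76. *Timp1*, a metalloproteinase inhibitor, rose in classical monocyte-like cells from 0 to 126 UMIs in the young and from 1 to 128 in the aged. Many of these targets also answer to other signals. In this list 28 pairs were called in the same direction at both ages.

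Genes of TGF-β latency and activation had 32 higher and 10 lower of 112 pairs in the young (37.5%) and 13 higher and 12 lower of 107 in the aged (23.4%). *Thbs1*, which encodes the latency-activating thrombospondin 1, was at 967 and 5220 CPM in young and at 1212 and 2968 CPM in aged fibroblast-like cells, nonventilated first. Its log2 ratios there were 2.43 and 1.29, and 4.76 and 2.22 in alveolar type I-like cells. *Itgb8*, an integrin subunit that activates TGF-β, went from 0 to 50 UMIs in aged classical monocyte-like cells. *Itgb5* fell in myofibroblast-like cells at both ages.

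Secreted antagonists had 10 higher and 8 lower of 57 pairs in the young (31.6%) and 4 higher and 8 lower of 49 in the aged (24.5%). *Fst* (follistatin), which binds and blocks activin, rose in fibroblast-like cells from 7 to 266 UMIs in the young and from 2 to 83 in the aged, with log2 ratios of 4.57 and 4.95. In myofibroblast-like cells of the young it went from 0 to 187 UMIs. *Sost* (sclerostin) fell in the pericyte-like class at both ages, with log2 ratios of -3.06 and -2.39.

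Other ligands had enough UMIs in few classes, 24 pairs in the young with 5 higher and 8 lower (54.2%) and 25 in the aged with 4 higher and 5 lower (36.0%). *Inhbb*, which encodes the subunit of activin B, rose in the *Ptprb* endothelial cluster from 70 to 681 UMIs in the young and from 75 to 1065 in the aged, log2 ratios of 3.14 and 4.05. In aerocyte-like cells it went from 1 to 24 UMIs in the young and from 0 to 63 in the aged. *Gdf10*, a distant relative of the BMPs, fell in fibroblast-like cells with -2.58 and -2.39. Other receptors and coreceptors had calls in 19 of 112 pairs in the young (6 higher, 13 lower, 17.0%) and 11 of 107 in the aged (1 higher, 10 lower, 10.3%), shares near those over all genes. *Acvr1b*, the type I receptor for activins, was the higher one at both ages in fibroblast-like cells (1.85 and 1.91), where *Acvr2b*, a type II receptor for activins, fell (-1.64 and -1.31).

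SMAD mediators and inhibitors were also near the background, with 23 higher and 12 lower of 215 pairs in the young (16.3%) and 6 higher and 17 lower of 203 in the aged (11.3%). *Smad9*, a mediator of BMP signals, fell in fibroblast-like cells from 52 to 6 UMIs in the young and from 43 to 8 in the aged. *Tgif1*, a SMAD corepressor, rose in the same cells with log2 ratios of 2.20 and 1.10. Of BMP target genes, 10 of 61 pairs were higher and 11 lower in the young (34.4%), and 5 of 59 higher and 14 lower in the aged (32.2%). *Atoh8* fell in fibroblast-like cells (-2.95 and -1.66), and *Id2* rose in alveolar macrophage-like cells (2.23 and 1.69).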

How the data were processed

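Left lung lobes were digested, the cells were cryopreserved and pooled, and 10x 3′ libraries were sequenced. Per the submitters' processing notes the authors used Cell Ranger 7.0.0 with mm10, and they deposited raw UMI counts per gene and barcode. No normalized values were used.

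Cells were kept at 200 to 5000 genes, at most 10% mitochondrial UMIs and no more UMIs than the 93rd percentile over all barcodes (28597), which followed the study's filters as far as they are stated. Doublets were limited by these upper bounds alone. Seurat 5.3.0 (with SeuratObject 5.2.0 and Matrix 1.6.5, under R 4.3.3) clustered the cells on 37 principal components of 2000 variable genes, at a resolution of 0.18, or 0.5 for the finer classes. The 10 genes and 107 other pathway genes were left out of the variable genes, which removed 35 of them. A cluster took the name of the marker list with the highest mean fold over the other cells, given at least 3 markers detected in 20% of its cells. Sums, ratios (log2 after adding 1 UMI to each sum) and exact 95% intervals (Poisson, conditional binomial, Clopper-Pearson) were computed in Python 3.11.15 with numpy 2.4.6, pandas 2.3.3 and scipy 1.17.1, and drawn with matplotlib 3.10.9. The intervals of the aged-minus-young differences were not exact. They were normal approximations from the sums with 1 UMI added, small sums included. The call rule was tried on simulated Poisson counts around the summed young fibroblast-like levels. These counts had no spread between cells or mice, so they tell nothing about calls that rest on 1 cell.

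Members could be named wherever 2 sums held 20 UMIs together, and the text gives the called pairs and some of the others. From each pathway list the rule took up to 4 pairs with the largest ratio at each age and at both ages, a few of which are not reported here. Members, gene lists and rules were chosen with earlier results of these data known. The genes most like each member were those with the highest Pearson correlation of log2(CPM + 10) over classes and libraries with at least 50000 UMIs. Other settings were tried in 14 alternatives, and 2 more were added after seeing the data. CPM are counts per 1000000 UMIs.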

Additional observations from a re-analysis of the deposited data

Results flagged for a closer look

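The log2 ratio of ventilated over nonventilated went opposite ways at the 2 ages, with a counting interval of each ratio that left out 1, for the pairs of gene and class given here. No 2-fold limit was set for this rule. The share of all genes that meet it was not computed, so the number of such pairs is not a result. Each age had 1 library per group, so the difference between the ages was not tested. In fibroblast-like cells, the aged-minus-young difference was 1.84 (1.54 to 2.15) for *Bmp4* and 1.07 (0.96 to 1.18) for *Tgfbr3*. In pericyte-like cells it was -1.13 for *Tgfbr1* and 0.92 for *Tgfbr3*. *Tgfbr1* in classical monocyte-like cells differed by -0.85, *Bmp6* in aerocyte-like cells by -1.02 and *Tgfb1* in lymphatic endothelial-like cells by -1.53. For *Tgfb1* in lymphatic endothelial-like cells, 32 of 93 aged nonventilated UMIs were in 1 cell. The difference of -7.33 for *Bmp6* in neutrophil or eosinophil-like cells rested on 18 UMIs of 1 aged nonventilated cell.

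Barcodes outside the cell filters were not part of the comparisons. Over these, *Tgfb2* was at 63.9, 51.2, 27.7 and 65.9 CPM in the YNV, YV, ANV and AV libraries, and its aged log2 ratio was 1.25. A single aged ventilated barcode, with 22.0% mitochondrial UMIs, held 597 of 1175 aged ventilated *Tgfb2* UMIs there, with 42 of *Bmpr1b* and 158 of the secretory airway list.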

How the results depend on the processing

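No paired analysis was possible because each group is 1 pooled library, and for the same reason no replicate could be left out. The 4 counts of called pairs were 32 and 21 for ventilation in the young and the aged, 9 for age without and 21 for age with ventilation. In that order, thinning to 1000 UMIs per cell (9587 cells) gave 11, 7, 2 and 7, and it leaves fewer pairs to compare. A minimum of 50 UMIs in the sums gave 18, 13, 3 and 15, and a 1.5-fold limit gave 49, 38, 18 and 32. Without the cell with the most UMIs of a gene in each class and library, an alternative added after seeing the data, they were 28, 17, 5 and 16, with 25, 12, 3 and 15 of the pairs kept. Under the other alternatives each count stayed within 1.5 times its reported value, among them a mitochondrial limit of 5% (25, 16, 6 and 17), the added limit to the 13 classes with at least 20 cells a library (25, 21, 7 and 16) and a finer clustering (37, 21, 10 and 22). The finer counts were of 115, 103, 109 and 109 pairs, beside 21.9%, 14.7%, 5.82% and 8.65% called over all genes. Under the other alternatives the share over all genes was not computed, so their counts are descriptions only. *Tgfb1*, *Tgfb2* and *Tgfb3* in fibroblast-like cells and *Tgfb2* in pericyte-like cells, all in the young, stayed past the limit under all 12 alternatives that give a ratio, as did *Bmp4* in fibroblast-like cells between the ages after ventilation. *Bmp4* in aged fibroblast-like cells missed it once, at a log2 ratio of 1.00, under another UMI limit. *Inhba* in classical monocyte-like cells had a value under 8 alternatives, since 4 clusterings left no nonventilated cell in that class, and of the 8 it was lost under thinning, at 2.52 in the young and 3.29 in the aged.

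Some called log2 ratios changed sign, and the cause was not tested. With each cell thinned these were *Tgfb1* (-0.13, young), *Tgfbr3* (0.0068, aged) and *Bmp6* (1.42, aged) in alveolar type II-like cells, *Bmp6* in B or plasma-like cells (0.36, young), *Tgfb2* (0.54) and *Tgfb3* (-0.20) in aged lymphatic endothelial-like cells and *Tgfb3* there between the ages (-0.37), *Tgfb3* (1.10) and *Bmp6* (-0.49) in young mesothelial-like cells, and *Tgfbr1* in young T, NK or innate lymphoid-like cells (0.25). With the mitochondrial limit of 5%, they were *Bmp6* in aged fibroblast-like cells (0.46), *Tgfb1* (-0.13, young), *Tgfbr3* (0.25, aged) and *Bmpr1b* (-1.34, between the ages) in alveolar type II-like cells, and *Tgfb2* between the ages in neutrophil or eosinophil-like cells (0.24). Without cells that carried markers of 2 lineages, they were *Bmp6* in aged alveolar type II-like (0.21), young B or plasma-like (0.39) and nonclassical monocyte-like cells (0.22 in the aged, -0.69 between the ages), and *Tgfb2* in neutrophil or eosinophil-like cells (-0.0016 in the young, 0.27 between the ages), the first of which was -0.00073 without its top cell. At the finer resolution, they were *Tgfb2* (-1.98, aged) and *Bmpr1b* (-0.79, between the ages) in alveolar type II-like cells and *Bmp6* in aged pericyte-like cells (1.21). With 5% background RNA subtracted, *Bmp6* in fibroblast-like cells was 0.14 in the aged and 0.86 between the ages. With 20 principal components, it was 0.42 in the aged, and *Inhba* in young pericyte-like cells was 0.12. As the mean of per-cell CPM, *Bmp6* in young B or plasma-like cells was 0.28. Depth limits the classes of few cells, such as the mesothelial-like class with 3 cells in each aged library.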

Other observations

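*Bmpr1b* lay mostly outside the cells compared. Of its UMIs, 83.2% were in barcodes that the filters removed, against 42.1% of all UMIs and 34.2% to 46.0% for the other 9 genes. Among the removed barcodes, the secretory airway list led in 148 of the 267 with a *Bmpr1b* UMI, and these held 77.2% of the *Bmpr1b* UMIs there. The barcode with the most, 147, was a young nonventilated one with 192232 UMIs and 10490 genes, of which 69095 UMIs were secretory airway markers. The level of *Bmpr1b* in airway cells is therefore not given by the classes above.

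The removed barcodes also gave values for the other genes. *Tgfb3* was at 23.6, 5.73, 16.4 and 7.57 CPM in the YNV, YV, ANV and AV barcodes, log2 ratios of -2.03 in the young and -1.11 in the aged. *Inhba* was at 5.34, 12.3, 6.73 and 6.17 CPM, higher in the young ventilated barcodes alone. *Bmp4* had log2 ratios of -0.57 and 0.29, and *Bmp6* was at 169, 114, 143 and 101 CPM. Summed over all kept cells of a library, *Inhba* had a log2 ratio of 1.22 at both ages, *Tgfb3* of -1.53 and -0.70, and *Bmp4* of -0.33 and 0.78. Such sums move with the share of each cell type as well as with the level within it.

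The genes most like each member over 65 combinations of class and library are given as descriptions, since classes of a library share its depth. *Tgfb3* was most like *Lama4* and *Adamts5* (Pearson r of 0.89 for both), *Tgfb2* like *Parva* (0.85) and *Kank1* (0.85), and *Tgfb1* like *Osbpl8* (0.82) and *Il2rg* (0.81). *Bmp6* was most like *Tspan7* (0.88) and *Myrip* (0.87), *Bmp4* like *Mettl7a1* and *Selenbp1* (0.88 for both), and *Bmpr1b* like *Dsg2* (0.89) and *Grip1* (0.88). *Tgfbr3* was most like *Mpdz* (0.88) and *Tmtc1* (0.86), *Tgfbr2* like *Tspan5* (0.69) and *Arid1b* (0.68), and *Tgfbr1* like *Efhd2* and *5031439G07Rik* (0.70 for both). *Inhba* had no close match, with *Acta2* (0.57) and *Actg2* (0.55), genes of smooth muscle actins, the nearest.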
